A study of Mus musculus with 20 samples.

Results

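The 3 NADPH oxidase genes of the NanoString mouse Immunology panel that passed a minimum count in lung are described here: Nox4, Cybb and Ncf4. They are 3 of 547 endogenous genes read by probe in left lung RNA of 20 male C57BL/6J mice. All 3 were taken by name, and they had been chosen from earlier values of these data, with their counts in the groups given hog dust extract (HDE) or saline in view. The comparison of HDE with saline is therefore given for them as a description, with no test. The diet comparisons and the correlations between the 3 genes are tested. Earlier results of these data were known when the genes were chosen, so these p-values are not independent of that choice.

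The mice were obtained at 5 to 8 weeks of age and ate either a diet rich in docosahexaenoic acid (DHA) or a control diet without DHA for 4 weeks. In both diets the soybean oil of the base chow was replaced, by a DHA oil with high-oleic safflower oil in the DHA diet and by high-oleic safflower oil alone in the control diet. Each mouse then received a single intranasal challenge of 50 µL, either 12.5% HDE or sterile saline, and was euthanized 5 h later. The study lists lavage of the airways and then collection of the left lungs, so airway cells may have been washed out of the tissue read here. There were 7 mice on the DHA diet given HDE, 6 on the control diet given HDE, 3 on the DHA diet given saline and 4 on the control diet given saline. The mice came from 3 experimental sets, but the labels do not tie a mouse to its set, so p-values measure the spread between mice with the sets mixed.

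NADPH oxidases are membrane enzymes that pass electrons from NADPH to oxygen and so make superoxide or hydrogen peroxide. Cybb encodes gp91phox, the catalytic subunit of NOX2, the oxidase of neutrophils and macrophages that fills the phagosome with superoxide during the respiratory burst. NOX2 is silent until cytosolic subunits join it, and Ncf4 encodes one of these, p40phox, which binds a phosphoinositide of the phagosome membrane. Nox4 encodes an oxidase of endothelium, fibroblasts and smooth muscle that is active without cytosolic subunits, makes mostly hydrogen peroxide, and is known to be induced by TGF-beta. In humans, loss of CYBB or NCF4 function causes forms of chronic granulomatous disease.

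In the reference annotation (GRCm38.p6) Nox4 lies at chr7:87244430-87398710, Cybb at chrX:9435252-9487766 and Ncf4 at chr15:78244164-78262582. The RefSeq promoter windows of Nox4 and Cybb, the 250 bases before 1 annotated start of each gene, are shown because these 2 catalytic subunits lay on opposite sides of saline in the HDE mice. Capitals mark matches to letters that were picked after the sequences had been read. In Nox4 they are GGGCGG (GC box) and GTCTG, the reverse complement of CAGAC (SMAD element). In Cybb they are CCAAT (bound by the factor NF-Y) and TGANTCA, a loosened AP-1 pattern in which N is any base. The Cybb stretch reads TGAATCA, where the AP-1 consensus has C or G at N, so it is not a consensus AP-1 site.
Nox4, chr7:87246399-87246648, + strand: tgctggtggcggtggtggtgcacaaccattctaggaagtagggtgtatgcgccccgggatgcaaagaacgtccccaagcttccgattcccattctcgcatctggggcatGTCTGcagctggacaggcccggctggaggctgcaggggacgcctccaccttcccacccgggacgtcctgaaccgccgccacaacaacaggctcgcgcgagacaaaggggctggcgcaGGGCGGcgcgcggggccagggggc
Cybb, chrX:9469325-9469574, − strand: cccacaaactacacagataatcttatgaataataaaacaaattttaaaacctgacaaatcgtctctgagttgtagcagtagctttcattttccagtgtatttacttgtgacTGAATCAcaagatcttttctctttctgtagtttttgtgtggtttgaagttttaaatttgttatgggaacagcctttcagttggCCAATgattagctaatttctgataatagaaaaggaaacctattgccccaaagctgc
The Nox4 window was 67.2% G and C, the Cybb window 34.0%, and the median of 32851 RefSeq mouse windows of that length 52.4%. Over those windows and both strands, 32.7% held GGGCGG, 42.2% held CAGAC, 33.8% held CCAAT and 6.75% held TGANTCA. The letters GAGGAA, taken here as a PU.1-type site, were held by 23.3% of windows and by neither of the 2 shown. This says only that these letters are not in these 250 bases. Shorter or other forms of the site were not counted, so the windows are not said to lack it. No factor was measured at either window.

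Counts are given after scaling each lane, the set of counts from 1 mouse, by the geometric mean of Eef1g, Oaz1, Ppia and Rpl19, which are 4 of the panel's 14 housekeeping genes. Over the endogenous genes the lanes held 123536 to 684074 raw counts, with a median of 278392 in HDE mice and 222403 in saline mice. Nox4, Cybb and Ncf4 were above the negative-control limit of their lane (mean plus 2 SD of 8 negative probes, 16.6 to 40.9 counts) in all 20 mice, with raw counts of 82 to 2325, 199 to 1731 and 53 to 827. The panel's other NADPH oxidases were not measurable in the same way, since Nox1 was above that limit in 7 of 20 mice and Nox3 in 0. Both were under the minimum mean of 82 scaled counts and were not tested. The remaining NOX2 subunits were not analysed here.

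The labelled tissue could be checked only in part, since surfactant and club cell genes were not analysed here, but Muc1, an epithelial mucin, averaged 4853 ± 1498 in HDE mice and 3487 ± 475 in saline mice (SD, n = 13 and 7). Some lanes stood apart. The control diet HDE mouse 3 had a summed scaled count over 13 T cell and thymocyte markers of 20292, against a median of 738 in the 13 HDE mice and a range of 594 to 971 in the saline mice. The control diet HDE mice 2 and 4 had 3171 and 1289 for that sum, also above the saline range. The control diet HDE mouse 6 had a summed count over 9 neutrophil markers of 1011, below every saline mouse (1756 to 5202) and far below the HDE median of 12129. Values without mice 3 and 6 stand beside the results that follow, and mice 2 and 4 stay in them. The sample titles carry 2 prefixes, here called run 1 and run 2, whose dates lie nearly a year apart, and each group had mice in both.

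Nox4 transcript was lower in every mouse given HDE than in any mouse given saline. In DHA diet mice given HDE the scaled counts of Nox4 were 140, 465, 414, 296, 268, 533 and 140 (lowest 140, median 296, highest 533). Control diet mice given HDE had 198, 271, 265, 503, 574 and 573 (lowest 198, median 387, highest 574). DHA diet mice given saline had 745, 614 and 925, and control diet mice given saline had 1133, 585, 1033 and 1149. The 2 exposures did not overlap, although the nearest mice, at 574 with HDE and 585 with saline, nearly touched. The same separation of HDE wholly below saline was found for 3 of 358 tested genes (0.838%): Nox4, Fcgrt, which encodes the neonatal Fc receptor, and Npc1, a lysosomal cholesterol transporter, the last 2 named after their values were seen. This background is set beside a gene that was chosen from the same contrast.

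The mean Nox4 count was 357 ± 160 in HDE mice and 884 ± 237 in saline mice (SD, n = 13 and 7). The fitted log2 fold change of HDE over saline was −1.27 (SE 0.27, edgeR model with diet), a fold of 0.415, and it was the lowest of the 358 genes tested. Within the DHA diet it was −1.24 (SE 0.40) and within the control diet −1.29 (SE 0.38). Over all tested genes the median log2 fold change was 0.47, so that Nox4 lay 1.74 below the median gene (−1.74). Of the 358 genes, 42.5% were called higher and 5.03% lower with HDE at an adjusted p under 0.05, and nothing is read from these shares for the 3 oxidase genes. Within runs the Nox4 value was −1.41 (run 1) and −1.33 (run 2), and without the control diet mice 3 and 6 it was −1.28.

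Cybb transcript was higher in most mice given HDE. DHA diet mice given HDE had scaled counts of 1118, 1172, 899, 1391, 984, 768 and 794 (lowest 768, median 984, highest 1391). Control diet mice given HDE had 1181, 878, 389, 820, 703 and 261 (lowest 261, median 762, highest 1181). DHA diet mice given saline had 379, 409 and 369, and control diet mice given saline had 484, 387, 307 and 296. Among 13 mice given HDE, 11 exceeded every mouse given saline, the control diet mouse 3 lay within the saline range and the control diet mouse 6 lay below it. On the DHA diet the HDE and saline mice did not overlap, for Cybb as for Nox4 and Ncf4. The share of all genes that separated in this way was not counted, so nothing is read from it.

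The mean Cybb count was 874 ± 314 in HDE mice and 376 ± 63.4 in saline mice (SD, n = 13 and 7), a fitted log2 fold change of 1.15 (SE 0.25) or 2.22-fold. It was 1.40 (SE 0.37) within the DHA diet and 0.94 (SE 0.33) within the control diet. At 0.68 above the median gene, Cybb ranked 96 of 358 from the highest. The HDE mice of run 1 averaged 1106 ± 193 and those of run 2 averaged 674 ± 256 (SD, n = 6 and 7), and in saline mice the means were 415 ± 47.9 and 324 ± 39.3 (n = 4 and 3). The log2 fold change was 1.41 within run 1, 0.97 within run 2 and 1.34 without the control diet mice 3 and 6.

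Ncf4 had the largest HDE-to-saline ratio of the 3 genes. DHA diet mice given HDE had scaled counts of 337, 197, 381, 610, 562, 229 and 576 (lowest 197, median 381, highest 610). Control diet mice given HDE had 334, 277, 266, 362, 248 and 83.7 (lowest 83.7, median 271, highest 362). DHA diet mice given saline had 121, 109 and 85.9, and control diet mice given saline had 88.7, 123, 111 and 92.0. All mice given HDE but the control diet mouse 6 exceeded every mouse given saline, and that mouse had the lowest count of the 20. Mouse 3, which fell within the saline range for Cybb, did not do so for Ncf4.

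The mean Ncf4 count was 343 ± 157 in HDE mice and 104 ± 15.5 in saline mice (SD, n = 13 and 7), a fitted log2 fold change of 1.62 (SE 0.29) or 3.07-fold. It was 1.97 (SE 0.43) within the DHA diet and 1.33 (SE 0.38) within the control diet. At 1.15 above the median gene, Ncf4 ranked 61 of 358 from the highest. The value was 1.63 within run 1, 1.61 within run 2 and 1.76 without the control diet mice 3 and 6. The saline counts were close together, with a coefficient of variation of 14.9%, while the HDE counts spread over 45.8%.

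**Figure D1:**
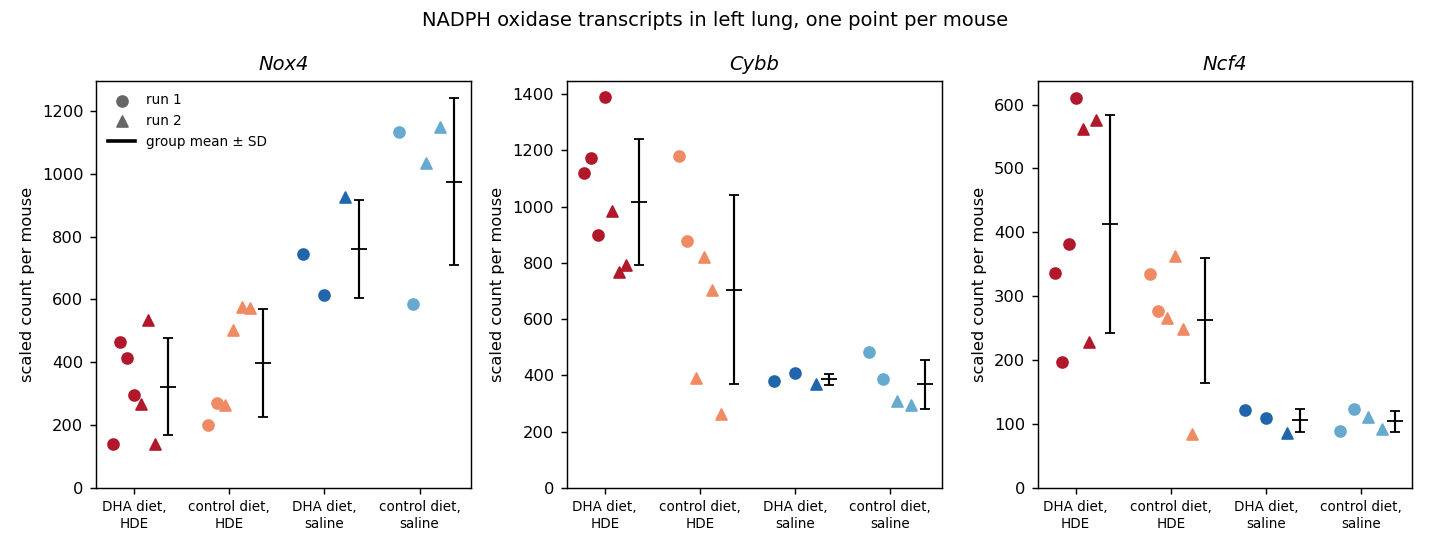
Scaled counts (vertical axis, linear from 0) of Nox4, Cybb and Ncf4 in each of 20 mice by diet and exposure, circles for run 1 and triangles for run 2, with group mean and SD beside the points. Nox4 in the 13 HDE mice lies at 140 to 574 under the saline mice at 585 to 1149, and Cybb and Ncf4 are higher in HDE mice except for the control diet mouse 6, and mouse 3 for Cybb.

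The size of the HDE-to-saline difference depended on how lanes were scaled. With housekeeping scaling the panel's median gene was itself 0.47 higher with HDE. With TMM scaling, which sets lanes to a common centre over all genes, that median was −0.03. The log2 fold changes were then −1.68 for Nox4, 0.62 for Cybb and 1.05 for Ncf4, with unchanged signs. Under TMM 12 of the 13 HDE mice lay below every saline mouse for Nox4, 10 above for Cybb and 12 above for Ncf4.

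Ratios of 2 genes within a lane do not depend on any scaling factor. A ratio's level reflects probe efficiency as well as transcript, so only differences between mice are read. The log2 ratio of Cybb to Nox4 averaged 1.33 ± 1.15 in HDE mice and −1.20 ± 0.53 in saline mice (SD, n = 13 and 7), a difference of 2.53. It was higher in 12 of 13 HDE mice than in every saline mouse, and the control diet mouse 6, at −1.14, was the exception. The log2 ratio of Ncf4 to Nox4 averaged −0.06 ± 1.32 in HDE mice and −3.05 ± 0.58 in saline mice, a difference of 2.98, with the same mouse (−2.78) as the exception. The 2 NOX2 subunit genes differed less from each other: the log2 ratio of Ncf4 to Cybb was 0.45 higher with HDE, and 6 of 13 HDE mice lay above all saline mice.

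Between the diets, DHA diet mice given HDE had a mean Cybb-to-Nox4 log2 ratio of 1.80 ± 0.86 and control diet mice given HDE 0.78 ± 1.27 (SD, n = 7 and 6), a difference of 1.02. These ranges overlapped, at 0.53 to 3.00 and −1.14 to 2.57. For Ncf4 to Cybb the diets differed by −0.0005. No test was made on these ratios, since the genes in them were chosen with their values known.

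**Figure D2:**
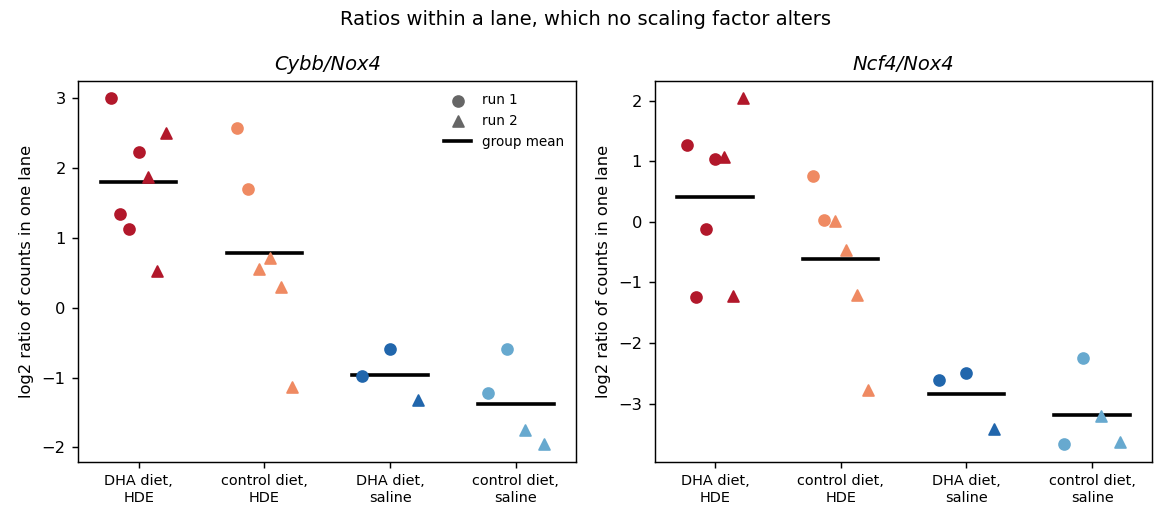
Log2 ratios of Cybb to Nox4 (left) and of Ncf4 to Nox4 (right) within the lane of each mouse (vertical axis), by diet and exposure, with circles for run 1, triangles for run 2 and a line for the group mean. In both panels 12 of 13 HDE mice lie above every saline mouse, and 1 control diet HDE mouse lies among them.

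The diet comparison in HDE mice asks whether transcript levels after HDE differed between the diets. In the 13 HDE mice, Cybb averaged 1018 ± 224 on the DHA diet and 705 ± 337 on the control diet, and Ncf4 averaged 413 ± 171 and 262 ± 97.4 (SD, n = 7 and 6). Nox4 averaged 322 ± 154 on the DHA diet and 398 ± 171 on the control diet. The diets overlapped for all 3 genes, with 4 of 7 DHA diet mice above every control diet mouse for Ncf4, 1 of 7 above for Cybb and 2 of 7 below for Nox4. None of the differences passed the test.

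For DHA over control diet in HDE mice the log2 fold change of Ncf4 was 0.66 (SE 0.36, 95% interval −0.11 to 1.42, edgeR adjusted p = 0.981). That of Cybb was 0.53 (SE 0.32, −0.15 to 1.21, adjusted p = 0.981) and that of Nox4 −0.30 (SE 0.38, −1.10 to 0.50, adjusted p = 0.981). The unadjusted p of edgeR's quasi-likelihood test was 0.0883, 0.117 and 0.432. In this comparison 0 of 363 genes (0%) passed an adjusted p under 0.05 with edgeR and 18 (4.96%) an unadjusted p of at most 0.05. Among the 18 were T cell and thymocyte markers, which were highest in the control diet mouse 3. DESeq2 with the same housekeeping factors called 3 genes lower and 0 higher. The median gene was 0.13 higher on the DHA diet. The intervals still contain folds of 0.926 to 2.68 for Ncf4, 0.903 to 2.31 for Cybb and 0.465 to 1.41 for Nox4.

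The 2 control diet mice that stood apart carried part of these estimates. Without mice 3 and 6 the DHA-over-control value was 0.43 for Ncf4, 0.18 for Cybb and −0.26 for Nox4. Of the mice given HDE, 4 of 7 on the DHA diet and 2 of 6 on the control diet were in run 1. Within run 1 the values were 0.31 for Ncf4, 0.15 for Cybb and 0.49 for Nox4, the last with the opposite sign. Within run 2 they were 0.92, 0.64 and −0.61 in the same order. With run as a block they were 0.65, 0.43 and −0.15.

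Over all 20 mice, with exposure in the model, DHA over control diet gave 0.44 for Ncf4 (95% interval −0.10 to 0.98), 0.37 for Cybb (−0.10 to 0.84) and −0.32 for Nox4 (−0.87 to 0.23), each with an edgeR adjusted p of 0.924. Here 0 of 358 genes (0%) passed the adjusted threshold and 14 (3.91%) the unadjusted one, with T cell and thymocyte markers again among the 14. In saline mice the diet values were 0.02 for Ncf4 (−0.88 to 0.92), 0.07 for Cybb (−0.73 to 0.86) and −0.36 for Nox4 (−1.32 to 0.60). Cybb averaged 385 ± 20.7 in DHA diet and 368 ± 87.1 in control diet saline mice, and Ncf4 105 ± 18.0 and 104 ± 16.3 (SD, n = 3 and 4). Nox4 averaged 761 ± 156 and 975 ± 265 in the same mice.

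Whether the HDE response differed between diets was tested by the interaction term. It was 0.64 for Ncf4 (95% interval −0.48 to 1.75), 0.46 for Cybb (−0.52 to 1.45) and 0.05 for Nox4 (−1.13 to 1.24), with an edgeR adjusted p of 0.997 each. No gene of 358 (0%) passed the adjusted threshold and 9 (2.51%) passed the unadjusted one, with T cell and thymocyte markers among the 9. A larger response of Ncf4 or Cybb on the DHA diet was thus not detectable with these group sizes, and the intervals do not show that the diets act alike.

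**Figure D3:**
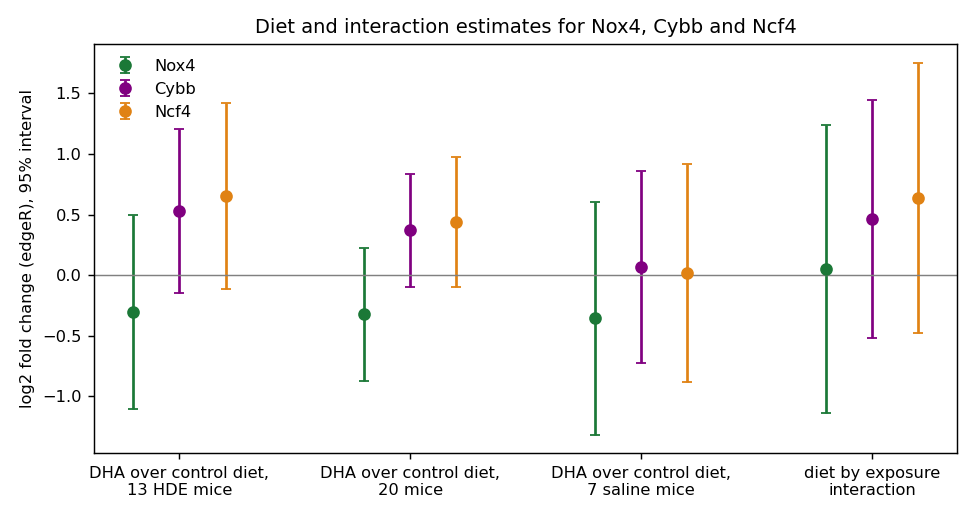
Log2 fold changes (vertical axis) of Nox4, Cybb and Ncf4 for DHA over control diet in 13 HDE mice, in 20 mice and in 7 saline mice, and the diet by exposure interaction, as points with 95% intervals from edgeR. Every interval includes 0, with Ncf4 in HDE mice at 0.66 (−0.11 to 1.42) and Nox4 at −0.30 (−1.10 to 0.50).

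Receptors and kinases known to activate NOX2 were described from a list. Of 16 tested, 8 rose with HDE and 0 fell, against 42.5% and 5.03% of all genes, with a median log2 fold change of 0.70 beside 0.47 for all genes. These shares are close to the background and nothing is read from them about the list. Ptafr, the receptor for platelet-activating factor, averaged 1258 ± 824 in HDE mice and 91.0 ± 25.6 in saline mice (SD, n = 13 and 7; log2 fold change 3.70, edgeR adjusted p = 1.6e-05). Tlr2, a receptor for bacterial lipoproteins, rose by 2.32 (SE 0.35), Csf2rb, the shared beta chain of the GM-CSF receptor, by 1.99 (SE 0.33) and Itgam, the integrin chain CD11b, by 1.42 (SE 0.31). Those that did not pass included Tlr4, the lipopolysaccharide receptor (0.13), and Itgb2, the partner of CD11b (0.38). With TMM scaling 8 of these 16 genes were called higher and 4 lower, where 106 of 358 genes (29.6%) were called higher and 94 (26.3%) lower. In run 2 alone 3 of 15 were called higher and 0 lower, where 40 of 342 genes were called higher and 0 lower.

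Of a list of 29 genes named oxidant and nitrosative metabolism, 3 were on the panel and 2 were tested. Both rose, where 42.5% of all genes did. Hif1a, the hypoxia-inducible factor, rose by 1.19 (SE 0.31, edgeR adjusted p = 0.0033). Ptgs2, the inducible cyclooxygenase, rose by 1.00 (SE 0.28, adjusted p = 0.0058). Nothing is read from these 2 genes about oxidant metabolism. With TMM scaling 1 of the 2 was called higher, where 29.6% of all genes were. Among 8 tested genes of TGF-beta signalling, which is known to induce Nox4, 2 rose and 1 fell, against 42.5% and 5.03% of all genes, and the median was 0.22 beside 0.47 for all genes. Tgfb1, a ligand, rose by 1.07 (SE 0.30), Smad3, a signal transducer, by 0.70 (SE 0.23), and Tgfb3, another ligand, changed by −0.80 (SE 0.29, adjusted p = 0.0258). With TMM scaling 1 of the 8 was called higher and 3 lower, against 29.6% and 26.3% of all genes. The receptor genes Tgfbr1 (0.20) and Tgfbr2 (0.31) did not pass.

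**Figure D4:**
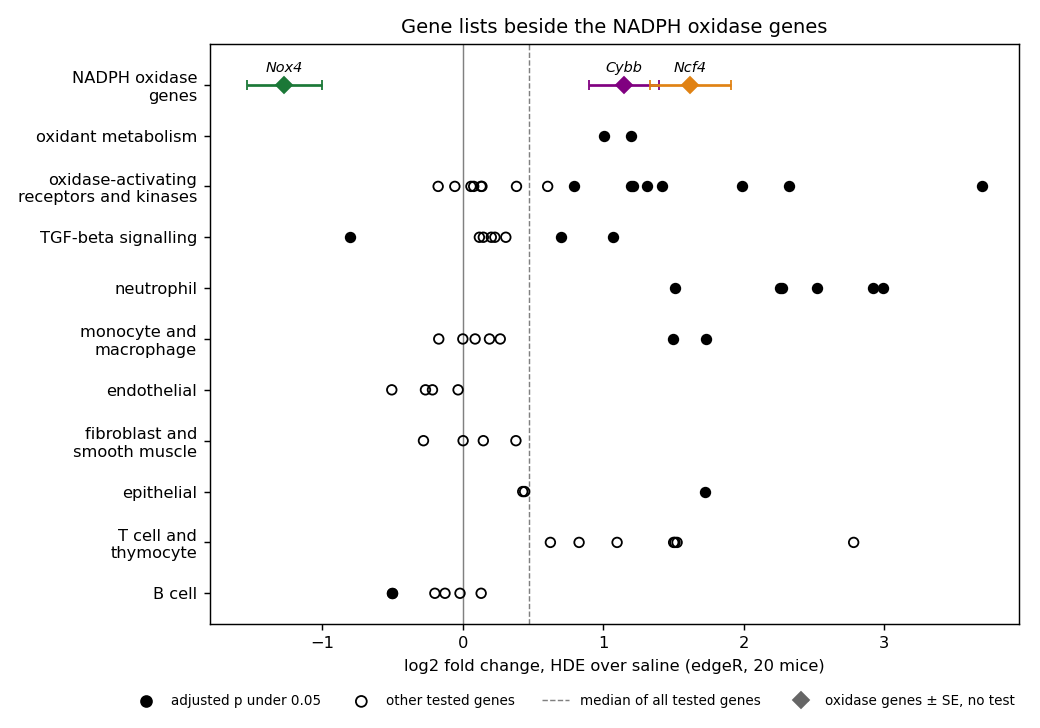
Log2 fold change of HDE over saline (horizontal axis, 20 mice) for Nox4, Cybb and Ncf4 with SE (top row, no test) and for the tested genes of 10 lists, filled where the edgeR adjusted p was under 0.05, with a dashed line at the median of all genes (0.47). The 6 neutrophil markers lie at 1.51 to 2.99, the 4 endothelial markers at −0.50 to −0.03, and Nox4 at −1.27 lies left of all of them.

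Neutrophils and macrophages are the cells best known for NOX2. In bulk lung, here collected after airway lavage, fewer cells of a type and less RNA per cell cannot be told apart. Of 9 neutrophil markers on the panel 6 passed the minimum count, which the HDE mice could carry a gene over, and these 6 rose with HDE, where 42.5% of all genes did. With no count minimum 6 of 9 were called higher, and with 82 counts required in every mouse 3 of 3. These counts stand without the shares of all genes called in the same settings, so nothing is read from them. The median log2 fold change of the 6 was 2.39, above the 1.15 of Cybb and the 1.62 of Ncf4. S100a8, a calcium-binding protein abundant in neutrophils, averaged 10407 ± 9988 in HDE mice and 1253 ± 707 in saline mice (SD, n = 13 and 7), and S100a9, its partner, changed by 2.92 (SE 0.63). Csf3r, the G-CSF receptor, rose by 2.26 (SE 0.43), Cxcr2, a chemokine receptor of neutrophils, by 2.27 (SE 0.46) and Trem1, a receptor that amplifies their activation, by 2.52 (SE 0.43). The sum over 9 neutrophil markers ran from 1011 to 62626 in HDE mice and from 1756 to 5202 in saline mice, with no marker at 0. In the 10 mice of run 2 alone none of the 6 was called (edgeR), with a median of 2.34, where 40 genes were called higher. The part of this list in the Cybb and Ncf4 values was not tested.

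Of 7 tested monocyte and macrophage markers 2 rose with HDE, where 42.5% of all genes did: Msr1 (1.73, SE 0.32) and Marco (1.50, SE 0.36), both scavenger receptors. Csf1r, the receptor for the macrophage growth factor CSF1 (0.19), Itgax, the integrin chain CD11c (0.27), Ccr2 (0.09) and Cx3cr1 (0.00), both chemokine receptors of monocytes, did not pass, and the list's median was 0.19 beside 0.47 for all genes. With TMM scaling 2 of the 7 were called higher and 2 lower, against 29.6% and 26.3% of all genes. The summed count of 9 markers was 1109 to 4093 in HDE mice and 1520 to 2163 in saline mice. Within the HDE mice, Marco averaged 619 ± 332 on the DHA diet and 296 ± 131 on the control diet (SD, n = 7 and 6; log2 fold change 1.06, edgeR adjusted p = 0.500). Its part in the Cybb values was not tested.

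For the cells known to carry Nox4, none of 4 tested endothelial markers was called (edgeR, 1 of 4 at an unadjusted p of at most 0.05), and their median log2 fold change was −0.24, beside −1.27 for Nox4. Pecam1, an adhesion molecule of endothelial junctions, averaged 3144 ± 1717 in HDE mice and 3761 ± 1130 in saline mice. The values of Cdh5, the endothelial cadherin, Icam2, an adhesion molecule, and Cd34 were −0.26, −0.50 and −0.03. With TMM scaling all 4 were called lower, as were 26.3% of all genes, with a median of −0.82, beside −1.68 for Nox4 and −0.03 for all genes. The summed count of the 4 was 2828 to 11561 in HDE mice and 5464 to 9878 in saline mice. Its part in the Nox4 values was not tested.

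Of 4 fibroblast and smooth muscle markers none was called (edgeR, 0 of 4 unadjusted), with a median of 0.08. Fn1, fibronectin, had 0.38 (SE 0.24), Cxcl12, a stromal chemokine, −0.28 (SE 0.21) and Pdgfrb, a receptor of pericytes, 0.00 (SE 0.25). With TMM scaling 1 of the 4 was called lower, where 26.3% of all genes were. Of 3 epithelial markers 1 rose, where 42.5% of all genes did: Pigr, the carrier of IgA across epithelium (1.72, SE 0.31). The list's median was 0.44 beside 0.47 for all genes. Without the control diet mice 3 and 6, 3 of 3 were called higher, with a median of 0.54 beside 0.49 for all genes. The share of all genes called higher without these mice is not given here, so nothing is read from that count. Of 6 B cell markers 2 fell, Cd79b and Ms4a1 (−0.50 each), where 5.03% of all genes did. With negative controls subtracted 0 of 6 were called lower, and the share of all genes in that setting is not given here. Under TMM 5 of the 6 were lower, where 26.3% of all genes were. None of 7 T cell and thymocyte markers was called (1 of 7 unadjusted), and their median of 1.50 was 0.22 over 4 tested genes without the control diet mice 3 and 6.

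For diet in the HDE mice no gene of these lists was called by edgeR. Past an unadjusted p of at most 0.05 were Btk, a kinase of phagocytes and B cells (114 ± 31.2 on the DHA diet and 76.9 ± 13.7 on the control diet), Tgfbi, a matrix protein induced by TGF-beta (757 ± 113 and 551 ± 110), and Marco. T cell and thymocyte markers, the list that was highest in the control diet mouse 3, included genes that passed the minimum count only through the control diet mice, so the calls of this list are not counted. Rag1, a recombinase of developing lymphocytes, averaged 24.7 ± 18.1 on the DHA diet and 941 ± 2020 on the control diet, with an SD above its mean.

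Within the 13 HDE mice, Cybb and Ncf4 had the highest correlation of the 3 pairs (Pearson r = 0.68, permutation p = 0.0153, 0.0916 after Benjamini-Hochberg adjustment over 6 relations, with Spearman rho = 0.48 and permutation p = 0.0979). Without the 2 mice farthest from the median of Cybb the r was 0.25, so that this relation rests on those mice. Within runs it was 0.38 (n = 6) and 0.84 (n = 7). With TMM scaling the r of Cybb and Ncf4 was 0.31 (permutation p = 0.298, adjusted 0.839). For Nox4 and Ncf4 the correlation was negative (r = −0.57, permutation p = 0.0390, adjusted 0.117, rho = −0.53 with permutation p = 0.0634). It was −0.22 and −0.69 within runs 1 and 2. Without the 2 mice farthest from the median of Nox4, the DHA diet mice 1 and 7, it was −0.55. With TMM scaling it was −0.73 (permutation p = 0.0030, adjusted 0.0178). For Nox4 and Cybb r was −0.35 (permutation p = 0.246, adjusted 0.369, rho = −0.42), with −0.16 and −0.25 within runs. The 3 genes of a lane share its scaling factor.

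In the 7 saline mice r was −0.72 for Nox4 and Ncf4 (exact permutation p = 0.0968, adjusted 0.194, rho = −0.61), −0.28 for Nox4 and Cybb (adjusted 0.642, rho = −0.43) and −0.08 for Cybb and Ncf4 (adjusted 0.869, rho = 0.04). With housekeeping scaling none of the 6 relations passed after adjustment. With TMM scaling the r of Nox4 and Ncf4 in saline mice was 0.055, and only the relation of these genes in HDE mice passed. Runs held too few saline mice for values of their own.

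The genes most like each oxidase gene were found from the deviations of the 20 mice from their group means, as a description. For Nox4 they were Phlpp1, a phosphatase of AKT (r = 0.83), Abcb1a, a drug efflux pump (r = 0.78), and Mme, the peptidase neprilysin (r = 0.78), where the median over all genes was −0.18. These 3 also had negative HDE values, of −0.66, −0.71 and −0.61. For Cybb they were Itgam (r = 0.86), the chemokine gene Ccl9 (r = 0.85) and Irf5, a transcription factor of myeloid cells (r = 0.85), with a median of 0.48. For Ncf4 they were Nfkbia, the NF-kB inhibitor (r = 0.95), Tnfrsf1b, a TNF receptor (r = 0.94), and Csf2rb (r = 0.92), with a median of 0.53. High values for Cybb and Ncf4 stand beside a high median over all genes, and all points share lane scaling.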

How the data were processed

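NanoString's mouse Immunology panel was read in left lung RNA of 20 mice. The authors read an nCounter Sprint profiler, handled the data in nSolver 4.0 and deposited raw counts per probe. The deposited normalized values, treated as a signal, equalled scaled counts times 1.181 and were used in 1 alternative. Groups came from the labels. Of 547 endogenous names, 531 matched a RefSeq symbol, and no column was left unused. No 2 mice of a group matched to within counting noise (lowest chi-square per degree of freedom 11.03 over 45 pairs).

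Raw counts were scaled by 4 housekeeping genes, and genes with a mean of at least 82 scaled counts over the mice compared were tested in R 4.3.3 with edgeR 4.0.16 (quasi-likelihood test, Benjamini-Hochberg adjustment over all tested genes, threshold 0.05). The number 82 is the count below which the study's methods removed probes, but applying it to the mean is a rule of this re-analysis. Correlations used log2(scaled count + 1) and 100000 permutations, or all permutations with fewer than 10 mice. Alternatives used limma 3.58.1, DESeq2 1.42.0, other scalings and filters, runs and left-out mice. The pipeline was tested on simulated counts.

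Members, gene lists and tests were chosen with earlier results of these data known. Named genes were the 3 members, the 3 genes most correlated with each, up to 4 genes per list by p for exposure, and list genes past an unadjusted p of 0.05 for diet. Tlr4, Itgb2, Tgfbr1, Tgfbr2, Ccr2 and Cx3cr1, which did not pass, were added after their values were seen.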

Additional observations from a re-analysis of the deposited data

How the results depend on the processing

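For HDE over saline, Nox4 kept its sign in 32 of 32 alternatives (−1.68 to −1.20), Cybb in all 32 (0.62 to 1.41) and Ncf4 in all 32 (1.05 to 2.11). The values that moved by more than 1 SD between mice were Cybb at 0.62 with TMM and 0.63 with DESeq2's own size factors, and within the DHA diet Cybb at 0.79 and 0.82 and Ncf4 at 1.33 and 1.36 under the same scalings, and Ncf4 at 2.69 with negative controls subtracted. Within that SD, Nox4 was at −1.82 with TMM within the DHA diet and at −1.88 in run 1 alone within the control diet. Both scalings move the median of all genes from 0.47 to −0.03, and the calls lower with HDE from 18 to 94 each. Those calls numbered 10 in run 1 alone, 0 in run 2 alone (where 40 genes were called higher, against 152) and 10 to 20 with 1 mouse left out, the 10 being without the DHA diet saline mouse 3. With 82 counts required in every mouse, 87 genes were called higher, of 210 tested.

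No diet or interaction value of the 3 genes passed the adjusted threshold in any alternative (edgeR, DESeq2 or limma adjusted p 0.491 to 0.999 for diet in HDE mice). DESeq2 with the housekeeping factors called 3 genes lower for that comparison. Signs that turned were those of Nox4 for diet in run 1 alone (0.49 in HDE mice, 0.12 in 20 mice), and of values near 0. For diet in saline mice these were Ncf4 (−0.071 with all housekeeping probes, −0.33 with negative controls subtracted, −0.24 in run 2 alone, −0.10 to 0.15 with 1 mouse left out) and Cybb (−0.14 in run 1 alone, −0.026 to 0.22 with 1 mouse left out). For the interaction it was Nox4 (−0.27 with TMM, −0.026 with all housekeeping probes, −0.23 with DESeq2's own factors, −0.020 with limma on the deposited values, −0.37 in run 2 alone, −0.12 to 0.23 with 1 mouse left out). The causes were not tested. With TMM the correlation of Nox4 and Ncf4 in HDE mice was −0.73 (permutation p = 0.0030, adjusted 0.0178), and in saline mice that of Nox4 with Cybb was 0.20 and with Ncf4 0.055. For Cybb and Ncf4 in saline mice it was 0.036 by Spearman's rho and 0.071 without the 2 mice farthest from the median of Cybb. No paired analysis was possible because replicate numbers only name the mice.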
